A study of Gallus gallus with 8 samples.

Results

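The 100 genes with the largest mean share of sequenced fragments in broiler breast muscle were described in 8 birds taken as one set. Deposited estimated counts of each bird were divided by the bird's total and scaled to a library total of 1000000 (CPM), the CPM were averaged over the 8 birds, and all 17108 genes of the gene table were ranked. The 100 largest are 0.585% of the genes. Because these CPM chose the genes, every level below is a description and none was tested. Symbols and positions were joined by Ensembl identifier from the authors' deposited comparison table, which holds an entry for 8076 genes and for all 100 of those described here. The first gene without an entry stood at rank 261, and genes without an entry held 1.05% of the counts.

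The birds are labelled as female chickens of the Hubbard Flex strain, a meat-type broiler, sampled at 6 weeks of age. The tissue was pectoralis muscle, and no agent or genetic change is given in the labels. For the study, 4 birds had high and 4 had low shear force, the resistance of the muscle to cutting. The groups were not compared here, and the animals are referred to as high birds 1 to 4 and low birds 1 to 4. RNA libraries from total RNA were sequenced in 2 technical repetitions, and the tables hold 1 column per bird.

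Breast muscle of the chicken is built almost wholly of fast fibres that make ATP mainly by glycolysis. Force comes from sarcomeres, in which thick filaments of myosin pull on thin filaments of actin, while calcium binding to troponin moves tropomyosin and opens the thin filament. Actinin and its partners anchor thin filaments at the Z-disc, myomesins link thick filaments at the M-band, and titin and nebulin span the filaments as giant rulers. Mitochondria carry their own small chromosome, which encodes core subunits of the respiratory chain with its own ribosomal and transfer RNAs.

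Total counts ranged from 5564905 to 7322205 per bird, and 12476 to 13210 genes had a count above 0. The smallest count of any of the 100 genes in any bird was 2643, so that counting error alone would give a median coefficient of variation (CV, the SD as a percentage of the mean) of 0.963% over the 100. The observed median CV was 20.6%. Low birds 1 and 3 often lay together at one end of the range. Without them the SD moved by over 1.5 times for 21 of the 100 genes and 2 of the 9 roles, and values without them are given beside selected results. Counts grow with transcript length as well as with the number of molecules, and lengths of nuclear transcripts were not used here, so levels of nuclear genes are shares of counts and not numbers of molecules. In bulk muscle, fewer cells of a type and less RNA per cell cannot be told apart.

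The library labelled high bird 1 went against its sex label. Hens carry a Z and a W chromosome, and roosters a pair of Z. The 3 entries on W stood at 2.35 to 9.02 CPM in this library and at 11.2 to 52.7 CPM in the other 7, and it was the lowest for all 3. Over 254 Z genes with a mean of at least 10 CPM, its median ratio to the median of the other birds was 1.25, against 0.880 to 1.04 for each other bird. Over 5865 genes of the other nuclear chromosomes and contigs, W left out, the same ratio was 0.900 for high bird 1 and 0.885 to 1.08 for the others. It was the highest bird for 117 of the 254 Z genes and for 206 of the 5865 others. Without this library the 100 largest genes, ranked again, held 61.01% ± 2.04 of the counts (SD, n = 7), and the 4 Z genes among the 100 are given below with and without it.

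A few genes held most of the counts. The first gene, GAPDH, took 9.04% ± 1.49 (SD, n = 8) of all counts, the 10 largest together took 35.9% ± 1.77 (SD, n = 8), and the 100 largest took 61.3% ± 2.08 (SD, n = 8). Per bird, the share of the 100 ran from 59.1% in low bird 3 to 65.3% in low bird 2. The 1000 largest reached 81.6% ± 1.42 (SD, n = 8). These SDs hold for shares of a bird's own total. With totals scaled by TMM or by DESeq2 size factors, the SD was 4.80 and 5.23 for the 10 largest and 7.31 and 8.06 for the 100 largest. It took 29 ± 4.50 genes (SD, n = 8; range 20 to 34) to hold 50% of a bird's counts. Low bird 2 had the largest share in every set of leading genes from 3 to 1000.

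Membership of the 100 was steady at the top and looser near the limit, while order shifted more between birds. Only 4 of the 100 had their best and worst rank within 1 place, and MYH1 ran from 10th to 45th. GAPDH was first in 8 of 8 birds, and the first 41 genes were each among the 100 largest of every bird. In all, 70 of the 100 were among the 100 largest of every bird, and each bird's own 100 largest held 85 to 94 of them. A total of 142 genes reached the 100 largest of at least 1 bird. Just inside the limit lay ND6 at 893 CPM, RPLP0 at 845 and APOA1 at 837. Just outside lay GNB2L1 at 835 CPM, RPL21 at 825 and CAPZA2 at 822, so membership at the limit turned on differences far smaller than the spread between birds.

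By role, 20 contractile and cytoskeletal genes took 23.7% ± 2.03 (SD, n = 8) of the counts. A further 17 genes of glycolysis and glycogen use took 18.1% ± 1.55 (SD, n = 8), and 14 genes of the mitochondrial chromosome took 10.6% ± 2.88 (SD, n = 8). These 51 genes together held 52.4% ± 2.59 (SD, n = 8). The most numerous role, translation, had 24 genes but only 3.40% ± 0.338 (SD, n = 8). The other 25 genes fell into 4 mitochondrial or phosphagen enzymes encoded in the nucleus, 3 calcium genes, 3 genes of the extracellular matrix, 5 genes whose symbol names no protein and 10 other named genes. GGA.27660, an entry of the chromosome 18 myosin cluster described below, is counted among the 5 whose symbol names no protein. The contractile share leaves it out and may be incomplete. The mitochondrial chromosome varied most among the 3 large roles, from 6.25% to 15.1%, with low bird 3 lowest and low bird 2 highest.

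**Figure D1:**
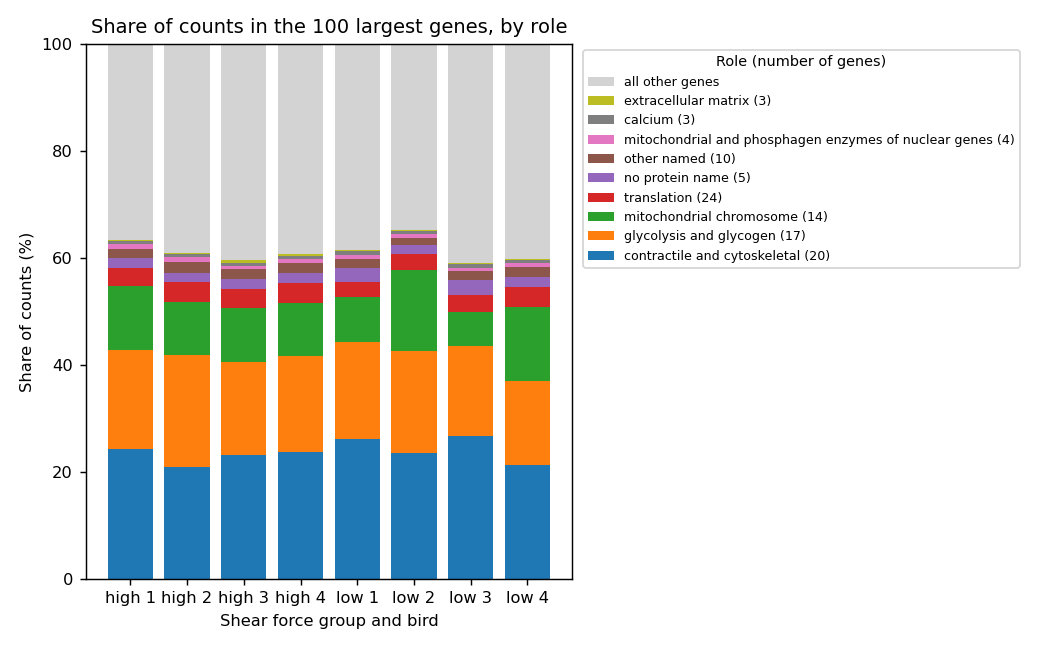
Share of each bird's counts (%) held by the 100 largest genes, stacked by role from 0 to 100, with the number of genes of each role in brackets and all other genes in grey. The contractile part runs from 20.95% to 26.7% and the mitochondrial part from 6.25% to 15.1%.

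The 10 largest genes comprised 2 enzymes, 6 filament proteins and 2 mitochondrial subunits. GAPDH, the glycolytic enzyme that oxidises glyceraldehyde 3-phosphate and is often used as a reference transcript, had 84593, 117931, 90496 and 93497 CPM in high birds 1 to 4 and 84812, 103717, 76264 and 71596 CPM in low birds 1 to 4. High bird 2 was highest and low bird 4 lowest, a ratio of 1.65, and the mean was 90363 ± 14944 CPM (SD, n = 8). LDHA, the lactate dehydrogenase subunit typical of anaerobic muscle, had 40349, 35399.6, 28874 and 31196 CPM in high birds 1 to 4 and 31604, 30601, 32303 and 32176 CPM in low birds 1 to 4. High bird 1 stood highest for it, and the other 7 birds lay within 28874 to 35399.6 CPM.

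MYH6, a myosin heavy chain entry on chromosome 18, had 64314, 50023, 52143 and 60216 CPM in high birds 1 to 4 and 71962, 57184, 69491 and 54849 CPM in low birds 1 to 4. Its 2 highest birds were low birds 1 and 3. ACTA1, skeletal alpha-actin of the thin filament, had 45783, 38201, 53659.7 and 48349 CPM in high birds 1 to 4 and 52222, 56808, 50142 and 39801 CPM in low birds 1 to 4. It was lowest in high bird 2 and low bird 4, and MYH6 had more counts than ACTA1 in 7 of 8 birds.

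MYL1, the alkali light chain of fast myosin, had 25254, 24545, 23426 and 27908 CPM in high birds 1 to 4 and 25465, 24813, 26422 and 24834 CPM in low birds 1 to 4. Its CV of 5.30% was among the smallest, with high bird 4 highest and high bird 3 lowest. TNNT3, fast troponin T that fixes the troponin complex to tropomyosin, had 28034, 23286, 23198 and 25114 CPM in high birds 1 to 4 and 25541, 22481, 29518 and 25286 CPM in low birds 1 to 4. TPM1, alpha-tropomyosin, had 22127, 19935, 22444 and 22983 CPM in high birds 1 to 4 and 19448, 22839, 22499 and 18909.6 CPM in low birds 1 to 4. TNNI2, the inhibitory subunit of fast troponin, had 12129, 12454, 12807 and 13492 CPM in high birds 1 to 4 and 11149.9, 12501, 12817 and 12309 CPM in low birds 1 to 4. Low bird 3 was highest for TNNT3, high bird 4 for TPM1 and TNNI2. Counts of TNNT3, TPM1 and TNNI2, genes of the regulated thin filament, spread little between birds, with CVs of 9.65%, 7.81% and 5.40%. The order of MYL1 and TNNT3 could not be told, since MYL1 had more counts in 4 of 8 birds.

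MT-CO1, a catalytic subunit of cytochrome c oxidase encoded by the mitochondrial chromosome, had 35973, 28352, 20362 and 27985 CPM in high birds 1 to 4 and 26218, 39490.03, 18734 and 38027 CPM in low birds 1 to 4. MT-CO3, another core subunit of the same enzyme, had 12419, 14460.3, 11072 and 12351 CPM in high birds 1 to 4 and 9787, 20059.7, 9065 and 19881 CPM in low birds 1 to 4. For both, low birds 2 and 4 were the 2 highest and low bird 3 was the lowest. The ratio of highest to lowest bird was 2.11 for MT-CO1 and 2.21 for MT-CO3, against 1.19 for MYL1.

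**Figure D2:**
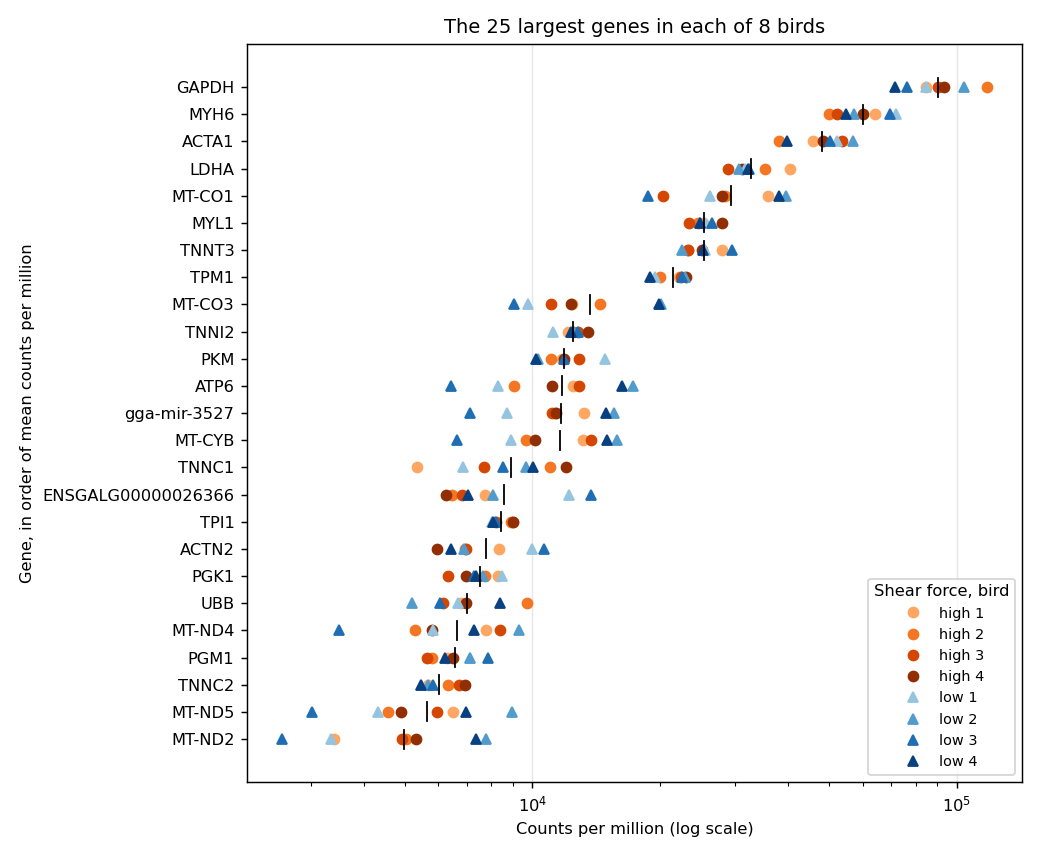
CPM (log scale) of the 25 genes with the largest means, 1 row per gene, with a circle for each high bird, a triangle for each low bird and a black bar at the mean of 8 birds. GAPDH lies to the right of all others in every bird, and mitochondrial rows such as MT-ND2 are wider than filament rows such as MYL1 and TNNI2.

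Beyond the first 10, the thin filament was filled out by both troponin C genes. TNNC1, troponin C of slow and cardiac fibres, had 5332 to 11995 CPM with a median of 9092, and its lowest value was in high bird 1 and its highest in high bird 4. TNNC2, the fast calcium-binding subunit, had 5449 to 6943 CPM with a median of 5755. TNNC1 had more counts than TNNC2 in 7 of 8 birds. The 4 troponin genes named with TPM1 in this set, TNNT3, TNNI2, TNNC1 and TNNC2, together with TPM1 held 7.41% ± 0.392 (SD, n = 8), with a median CV of 9.53% over the 5 genes.

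Genes listed by symbol as slow or cardiac contractile were spread over the ranking. The entries named MYH6, TNNC1 and CASQ2, at rank 36, were among the 100. ACTC1, cardiac actin, ranked 125th at 703 ± 291 CPM (SD, n = 8). TNNT2, cardiac troponin T, ranked 2019th at 47.1 ± 22.0 CPM (SD, n = 8), and TNNI1, slow troponin I, ranked 5427th at 13.01 ± 7.23 CPM. MB, the oxygen-binding myoglobin, ranked 5435th at 12.98 ± 5.79 CPM and MYH7B, a slow-type myosin, 6713th at 8.24 ± 3.72 CPM (SD, n = 8). Of 20 symbols on the list of slow or cardiac contractile genes, 15 had an entry. Of these, 3 were among the 100, with MYH6 counted by its symbol alone. What the name MYH6 stands for in this annotation is taken up with the myosin cluster.

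The thick filament was dominated by 1 gene of a myosin cluster on chromosome 18 (galGal4, the build named in the submitters' processing notes). Its 6 entries lie between 381895 and 638720 and took 7.21% ± 1.34 of all counts (SD, n = 8). MYH6, at 538724 to 561401, held 83.9% ± 4.65 of the cluster's counts (SD, n = 8). MYH1, at 381895 to 399588, held 6.22% ± 3.80, the entry named GGA.27660 held 5.57% ± 0.506 and the MYH3 entry at 584154 to 601425 held 3.30% ± 0.571 (SD, n = 8). MYH2 held 0.741% and a second MYH3 entry 0.255%, and neither was among the 100. Without low birds 1 and 3 the cluster took 6.57% ± 0.681 of all counts and MYH6 held 86.1% ± 2.56 of it (SD, n = 6).

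The symbols of this cluster name no fibre type by themselves. RefSeq, on the later GRCg7b assembly, lists 8 myosin genes in the same stretch before SCO1, namely MYH13 and MYH1A to MYH1G, and gives MYH6 as an older symbol of MYH15, which it places on chromosome 1. These genes are closely related copies, and the MYH2 entry spans its neighbours, so reads may have been split among them and each single value is uncertain.

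MYH1 varied more between birds than any other of the 100, with a CV of 80.5%. It had 4500.2, 1938, 4530.4 and 2119 CPM in high birds 1 to 4 and 12553, 2109, 9092 and 2189 CPM in low birds 1 to 4. Low bird 1 and low bird 3 were far above the rest, high birds 1 and 3 were intermediate and the other 4 birds lay between 1938 and 2189 CPM. Within the cluster its share ran from 3.06% in high bird 4 to 13.2% in low bird 1. Without low birds 1 and 3 its mean fell from 4879 ± 3929 CPM to 2898 ± 1256 CPM (SD, n = 6), and it was the 1 gene of the 100 whose mean moved by over 1.5 times. GGA.27660 ranged from 2983 to 5708 CPM and the larger MYH3 entry from 1573 to 3776 CPM, and for both low birds 1 and 3 were again the 2 highest.

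Z-disc and M-band proteins came next. ACTN2, the alpha-actinin that crosslinks actin at the Z-disc, had 5947 to 10625 CPM with a median of 6953. MYOZ1, a Z-disc protein that binds actinin and calcineurin, ranged from 1169.6 to 1691 CPM, and LDB3, a PDZ and LIM protein of the Z-disc, from 712 to 1662 CPM. MYOM2, the M-protein, ranged from 2049 to 5422 CPM and MYOM1, myomesin, from 712 to 1912 CPM. ACTN2, LDB3, MYOM2 and MYOM1 each had low birds 1 and 3 as the 2 highest, and MYOZ1 did not.

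The other members of this role bind or brace the filaments. ANKRD1, an ankyrin-repeat protein that binds titin, had 2984, 1479.8, 3939 and 744 CPM in high birds 1 to 4 and 1856, 1555, 2989 and 1385 CPM in low birds 1 to 4. High bird 3 was highest and high bird 4 lowest, a ratio of 5.30, and its CV of 50.6% was the third largest of the 100. GSN, the actin-severing protein gelsolin, ranged from 1094 to 2646 CPM. IGFN1, a Z-disc protein with immunoglobulin and fibronectin domains, ranged from 657 to 1885 CPM with a CV of 44.7%. CMYA5, the desmin-binding myospryn, ranged from 853 to 1980.3 CPM and DES, the intermediate filament desmin, from 756 to 1121 CPM. Of 55 symbols on the list of fast sarcomere genes, 31 had an entry, as 32 genes. Of these 32, 14 were among the 100, against 100 of 8076 (1.24%) for all genes with an entry.

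Enzymes of glycolysis and glycogen breakdown covered much of the route from glycogen to lactate. Of 44 listed symbols, 36 had an entry, and 16 of these were among the 100, while BPGM was added from its symbol. Symbols without an entry included PYGM, ALDOA, PGAM2 and ENO3, so the share of this role may not cover the whole route. PHKG1, PHKB and PHKA1, subunits of the kinase that switches on glycogen phosphorylase, stood at 1442 ± 179 CPM, 1248 ± 278 CPM and 899 ± 156 CPM (SD, n = 8). Without low birds 1 and 3, PHKB stood at 1119 ± 147 CPM and PHKA1 at 834 ± 89.9 CPM (SD, n = 6). PGM1, which makes glucose 6-phosphate from the product of phosphorylase, ranged from 5634 to 7849 CPM.

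The steps down to triose phosphates were represented by GPI, PFKM, FBP2 and TPI1. GPI, which turns glucose 6-phosphate into fructose 6-phosphate, ranged from 3501 to 4969 CPM, and PFKM, the muscle phosphofructokinase that commits sugar to glycolysis, from 3288 to 4734 CPM. FBP2, the muscle enzyme of the opposite reaction, had 4237, 2532, 1558 and 2067 CPM in high birds 1 to 4 and 2269.6, 2269, 1815 and 2229 CPM in low birds 1 to 4. High bird 1 was far above the other 7 for FBP2, which lies on the Z chromosome, and without it the mean was 2106 ± 326 CPM (SD, n = 7). TPI1, triose-phosphate isomerase, had 9009, 8917, 8209 and 8986 CPM in high birds 1 to 4 and 8021, 8180.1, 8216 and 8059 CPM in low birds 1 to 4. It had the smallest CV of the 100, 5.18%, and high birds 1, 2 and 4 were its 3 highest.

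The lower steps also held large counts. PKM, pyruvate kinase, had 10191 to 14835 CPM with a median of 11800.5, and low bird 1 was the highest. PGK1, the first ATP-yielding step, ranged from 6333 to 8465 CPM, PGAM1, phosphoglycerate mutase, from 3087 to 4233 CPM, and ENO1, enolase, from 898 to 1171 CPM. BPGM, which makes 2,3-bisphosphoglycerate, ranged from 1597 to 2465 CPM. GPD1, the glycerol 3-phosphate dehydrogenase of the redox shuttle, had a mean of 989.8 ± 168 CPM (SD, n = 8), with low bird 1 alone above the others, and of 935 ± 81.4 CPM without low birds 1 and 3 (SD, n = 6). The median CV over the 17 genes was 12.7%, the smallest of the 3 large roles.

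All 14 members on the mitochondrial chromosome differed by more than 2-fold between the highest and the lowest bird, against 28 of 86 nuclear members. Low bird 3 was the lowest bird for 14 of 14, and low bird 2 the highest for 12 of 14. ENSGALG00000018372 was highest in high bird 2 and ND6 in high bird 1. ATP6, a proton-channel subunit of ATP synthase, had 6411 to 17279.9 CPM with a median of 11791. MT-CYB, cytochrome b of complex III, had 6629 to 15830.002 CPM with a median of 11656, and the entry named gga-mir-3527 had 7127 to 15545 CPM with a median of 11326. That entry is annotated as protein-coding and lies between MT-CO1 and MT-ATP8, where RefSeq places COX2, the other catalytic subunit of cytochrome c oxidase.

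Mitochondrial genes have no introns, so their gene span was used as a length, and CPM are given per kilobase. No correction for fragment length was made. Values of the shortest protein-coding genes, MT-ATP8 (165 bases), ND4L (297) and MT-ND3 (351), are therefore uncertain, as is their place in the order. MT-CO1 stood at 18988 ± 5052 CPM per kb, MT-CO3 at 17394 ± 5419, ATP6 at 17131 ± 5541 and the gga-mir-3527 entry at 17051 ± 4214 CPM per kb (SD, n = 8). The SDs hold a level shared by all 4 genes of a bird, so they do not settle the order of the 4. Within birds, MT-CO1 exceeded MT-CO3 in 4 of 8, MT-CO3 exceeded ATP6 in 5 of 8 and ATP6 exceeded the gga-mir-3527 entry in 3 of 8. Pairs further apart in this list were not counted. MT-CYB followed at 10183 ± 2852 and MT-ATP8, the small subunit of ATP synthase, at 9132 ± 2952 CPM per kb, with MT-CYB higher in 8 of 8 birds. MT-ATP8 overlaps ATP6 by 10 bases, where a read can belong to either.

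The subunits of complex I, NADH dehydrogenase, lay below all of these. MT-ND4, MT-ND2, MT-ND1 and MT-ND3 stood at 4816 ± 1367, 4774 ± 1804, 4617 ± 1730.01 and 4247 ± 1424 CPM per kb (SD, n = 8). Within birds, MT-ND4 exceeded MT-ND2 in 4 of 8, and MT-ND2 exceeded MT-ND1 in 4 of 8. MT-ND5 followed at 3108 ± 1011, ND6 at 1710.2 ± 636 and ND4L, at rank 212 and so outside the 100, at 1381 ± 395 CPM per kb (SD, n = 8). In 8 of 8 birds each of the 6 other protein-coding genes was above each of the 7 complex I genes per kb. In low bird 3, the bird with the lowest mitochondrial share, the lowest of the 6 stood at 5448 and the highest complex I gene at 2539 CPM per kb.

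The chromosome's own RNA genes gave 2 of the 14 members. The ribosomal RNA gene ENSGALG00000018386, at 1297 to 2272, stood at 1068 ± 513 CPM per kb (SD, n = 8) and had a CV of 48.0%, the fourth largest of the 100. In single birds it had 1527, 1515, 706 and 634 CPM in high birds 1 to 4 and 676, 1850.02, 621 and 810.3 CPM in low birds 1 to 4. High birds 1 and 2 and low bird 2 were far above the other 5. The larger ribosomal RNA gene, at 2346 to 3966, ranked 200th with 269 ± 104 CPM per kb (SD, n = 8). Selection of RNA in making the libraries can change the counts of ribosomal and transfer RNA, and its part was not tested. The levels of these RNA genes and their spread are therefore not set against those of the protein-coding genes. The transfer RNA entry ENSGALG00000018372, at 8124 to 8258, had 12783 ± 4759.8 CPM per kb, but 69 of its 135 bases lie inside MT-CO1, and its counts may come from that gene.

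**Figure D3:**
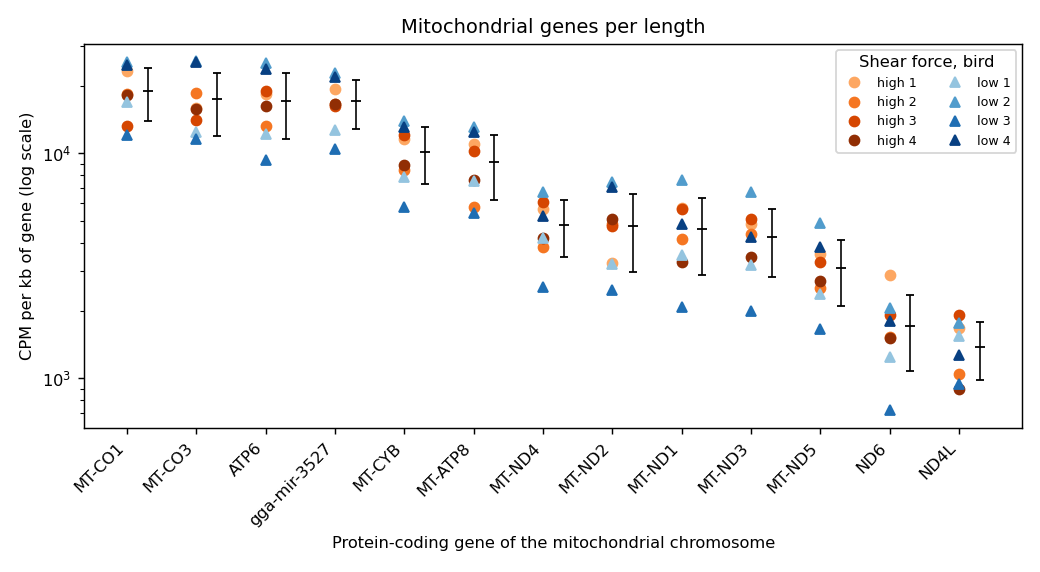
CPM per kilobase of gene (log scale) for the 13 protein-coding genes of the mitochondrial chromosome, with circles for high birds, triangles for low birds and black marks for mean ± SD of 8 birds. The 6 genes on the left, from MT-CO1 to MT-ATP8, lie above the 7 complex I genes, and low bird 3 is the lowest bird for all but ND4L.

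Nuclear genes of energy supply other than glycolysis were few among the 100 and took 0.751% ± 0.0824 (SD, n = 8) of the counts. AK1, adenylate kinase that turns ADP back into ATP, ranged from 2069 to 3235 CPM, and AMPD1, the muscle AMP deaminase, from 932 to 2020.3 CPM. CKMT2, mitochondrial creatine kinase, ranged from 1108 to 2476 CPM, with high bird 1 highest. This Z gene had a mean of 1454 ± 470.4 CPM (SD, n = 8), and of 1308 ± 244 CPM without high bird 1 (SD, n = 7). SLC25A4, the carrier that exchanges ADP for ATP across the inner membrane, ranged from 1880.2 to 2749 CPM. SLC25A4 was the 1 gene of 41 with an entry listed for nuclear-encoded oxidative phosphorylation and the tricarboxylic acid cycle that reached the 100. That is 2.44%, against 1.24% for all genes with an entry. Of 12 listed mitochondrial-encoded genes with an entry, 11 reached the 100. An entry was found for 40 of 52 listed symbols of nuclear-encoded oxidative phosphorylation and the tricarboxylic acid cycle. It was found for 11 of 14 phosphagen and purine nucleotide symbols, with CKM among those without one. Nuclear genes missing here or held under other names could not be counted in this share.

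Calcium handling gave 3 members, with 0.542% ± 0.0749 (SD, n = 8) of the counts, or 0.508% ± 0.0361 without low birds 1 and 3 (SD, n = 6). CASQ2, a calsequestrin that stores calcium in the sarcoplasmic reticulum, had 2241 to 3911 CPM with a median of 2540.3, with low birds 1 and 3 the 2 highest. CALM, calmodulin, had 1521, 1425, 1409 and 1616 CPM in high birds 1 to 4 and 1427, 1654, 2112 and 1491 CPM in low birds 1 to 4. Low bird 3 lay well above the other 7. These values are of the CALM entry on chromosome 5. Another entry of that name ranked 289th at 296 ± 42.1 CPM (SD, n = 8). CACNG1, a subunit of the voltage sensor of the transverse tubule, ranged from 918 to 1273 CPM. Of 21 listed genes of this kind with an entry these 3 were in the 100, and RYR3, a calcium release channel, was next at rank 109 with 770 CPM.

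Translation had the most members with small shares each. The elongation factor entry EEF1A on chromosome 20, which delivers aminoacyl-tRNA to the ribosome, had 4195 to 4925 CPM with a median of 4529, and its CV of 6.37% was the fourth smallest of the 100. The other EEF1A entry, on chromosome 3, had 1399 to 2445 CPM with a median of 1839, with a CV of 22.0%. TPT1, a translationally controlled protein that binds the elongation factor complex, had 2108 to 4176 CPM with a median of 3574, with low bird 1 lowest. EEF1D and EEF1B2, which recharge the elongation factor with GTP, had means of 1658 and 1094 CPM, and EEF2, which moves the ribosome along the message, 1245 CPM. EIF4G2, a scaffold of initiation, had a mean of 1564 CPM, the RNA helicases EIF4A2 and DDX3X 1293 and 1085 CPM, and YBX1, which coats messages, 896 CPM.

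The 14 ribosomal proteins together took 1.54% ± 0.236 of the counts (SD, n = 8; 1.22% to 1.80%). Among them, in order of mean, were RPL5, RPS3A, RPSA, RPL7A, RPS2, RPL7, RPS6, RPL8, RPS24, RPL4, RPL3L, RPL6 and RPLP0. The largest was RPL5 at 1397 ± 212 CPM and the smallest RPLP0 at 845 ± 146 CPM (SD, n = 8). Low birds 1 and 3 were the 2 lowest for 5 of the 14 and the 2 highest for none. RPL3L, a form of RPL3 used mainly in striated muscle, ranged from 771 to 1101 CPM, while RPL3 itself ranked 190th. RPS6, a small-subunit protein that is phosphorylated in growth signalling, had 1773, 1062, 959.6 and 1034 CPM in high birds 1 to 4 and 691, 746, 699.7 and 1032 CPM in low birds 1 to 4. High bird 1 was far above the rest for this Z gene, and without it the mean fell from 999.6 ± 349 CPM (SD, n = 8) to 889 ± 169 CPM (SD, n = 7). The list of ribosome and translation genes gave 19 of 47 with an entry.

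The extracellular matrix was represented by SPARC, COL1A2 and COL6A2, which took 0.322% ± 0.0923 (SD, n = 8) of the counts. SPARC, a collagen-binding glycoprotein, had 1118, 1531, 2090.2 and 1593 CPM in high birds 1 to 4 and 895, 1183, 902 and 1254 CPM in low birds 1 to 4. COL1A2, a chain of fibrillar collagen I, had 906, 1123, 1425 and 1130.4 CPM in high birds 1 to 4 and 765, 824, 590.4 and 846 CPM in low birds 1 to 4. COL6A2, a chain of the collagen VI network around fibres, had 878, 982, 1529 and 1119 CPM in high birds 1 to 4 and 761, 581, 779.7 and 918 CPM in low birds 1 to 4. High bird 3 was highest for all 3, and the next matrix gene of 19 listed with an entry was COL3A1 at rank 113. Of 7 fibroblast markers, 6 had an entry, COL1A2 among them, none was at 0, and they summed to 1568 to 4072 CPM over the birds. Their part in the matrix values was not tested.

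Among the other named genes, UBB, which encodes polyubiquitin, was the largest, with 5211 to 9706 CPM with a median of 6738. FTH, named FTH1 in RefSeq and the heavy chain of the iron store ferritin, ranged from 1266 to 2443 CPM, and GPX3, the secreted glutathione peroxidase, from 547 to 1473 CPM. RTN4, a reticulon of the endoplasmic reticulum, ranged from 1221 to 1523 CPM with a CV of 6.96%, the fifth smallest. C11ORF89 ranged from 1689 to 2551 CPM, GLO1, the glyoxalase that clears methylglyoxal, from 993 to 1415 CPM, and FAM47E-STBD1, a readthrough entry with a glycogen-binding protein, from 578 to 1268 CPM. ZNF106, a zinc-finger protein, ranged from 675 to 1890.4 CPM, with a CV that fell from 42.8% to 15.2% without low birds 1 and 3.

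Proteins known from other tissues also reached the 100. APOA1, the main protein of high-density lipoprotein, had 623, 1057, 902 and 1711 CPM in high birds 1 to 4 and 409, 657, 396 and 946 CPM in low birds 1 to 4. High bird 4 was highest, low birds 1 and 3 were lowest, and the CV of 51.1% was the second largest of the 100. CD74, the invariant chain of antigen-presenting cells, ranged from 526 to 1517 CPM. CD74 made up 913 of the 1054 ± 383 CPM (SD, n = 8) summed over 5 leukocyte markers, of which the others ranked 1680th or lower and none was at 0.

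The 5 members without a protein name took 2.04% ± 0.430 (SD, n = 8) of the counts, or 1.81% ± 0.111 without low birds 1 and 3 (SD, n = 6). ENSGALG00000026366, on chromosome 7 from 14695977 to 14885623, had 7727, 6478, 6806 and 6263 CPM in high birds 1 to 4 and 12215, 8085, 13774 and 7048 CPM in low birds 1 to 4. ENSGALG00000012495, on chromosome 7 from 34675656 to 34740616, had 3747, 2672, 3225 and 2475 CPM in high birds 1 to 4 and 6508, 3519, 6647 and 3249.6 CPM in low birds 1 to 4. For both, low birds 1 and 3 were the 2 highest, and without them the CV fell from 33.2% to 10.1% and from 41.0% to 15.5%. Between the neighbours of the first, CCDC141 and PLEKHA3, RefSeq lists TTN, the giant titin, with 2 unnamed loci. Next to RIF1, a neighbour of the second, it lists NEB, nebulin. These neighbours give no proof of what the entries are.

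The entry named gga-mir-3533, on chromosome 14, ranged from 653 to 1487 CPM, and RefSeq places that microRNA inside ACTB, cytoplasmic actin. ENSGALG00000026742 lies on an unplaced contig and had 1389 to 4944 CPM with a median of 2977, with a CV of 45.1%. Low birds 1, 2 and 3 were its 3 lowest. The remaining member without a protein name, GGA.27660, is described with the myosin cluster.

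The spread between birds was not smaller in the most abundant genes, although counting error was. The median CV was 20.6% for the 100 largest genes, 21.3% for the next 100, 18.4% for the next 300 and 16.4% for the 500 after those, up to rank 1000, where counting error alone would give 0.963%, 1.59%, 2.46% and 3.45%. Among the 100, 42 genes differed by more than 2-fold between the highest and the lowest bird, against 38 of the next 100. Only 11 genes had a CV under 10%: beside TPI1, MYL1, TNNI2, EEF1A of chromosome 20 and RTN4, these were TPM1, YBX1, PGK1, ENO1, TNNC2 and TNNT3. A CV over 40% was found for 9 genes, among them MYH1, APOA1, ANKRD1, ENSGALG00000018386, ENSGALG00000026742, IGFN1, ZNF106 and ENSGALG00000012495.

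The most frequent pair at both ends was low birds 1 and 3. Of the 28 possible pairs of birds, this one held the 2 highest values for 19 genes, followed by high birds 3 and 4 with 10, and the 2 lowest values for 24 genes, followed by low birds 1 and 2 with 11. Among the 19 genes were MYH6, MYH1, GGA.27660, MYH3, ACTN2, MYOM1, MYOM2, LDB3, IGFN1, ENSGALG00000026366, ENSGALG00000012495, PGM1, GPI, PHKB, CASQ2, EIF4G2, C11ORF89 and ZNF106. The 24 comprised 9 mitochondrial genes and 15 nuclear ones, among them TPT1, AK1, GSN, PHKG1, SPARC, COL1A2, GPX3, APOA1 and 5 ribosomal proteins.

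The genes high in this pair were long. The median genomic span, introns included, was 30.8 kb for the 19 genes and 3.80 kb for the 15 nuclear genes low in the pair, against 6.47 kb for the other 52 nuclear members and 14.8 kb for all nuclear genes with an entry. No RNA quality values were used here, and the part of gene length in this pattern was not tested. Without the pair, the 100 largest genes, ranked again over 6 birds, had a median CV of 15.6%, against 20.6% over 8. Of the original 100, the number with more than a 2-fold range fell from 42 to 21. The pair was picked from these same values, and a range over 6 birds cannot exceed that over 8. These falls are therefore a description only. Without the pair the contractile share was 22.8% ± 1.36 and the mitochondrial share 11.8% ± 2.28 (SD, n = 6).

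**Figure D4:**
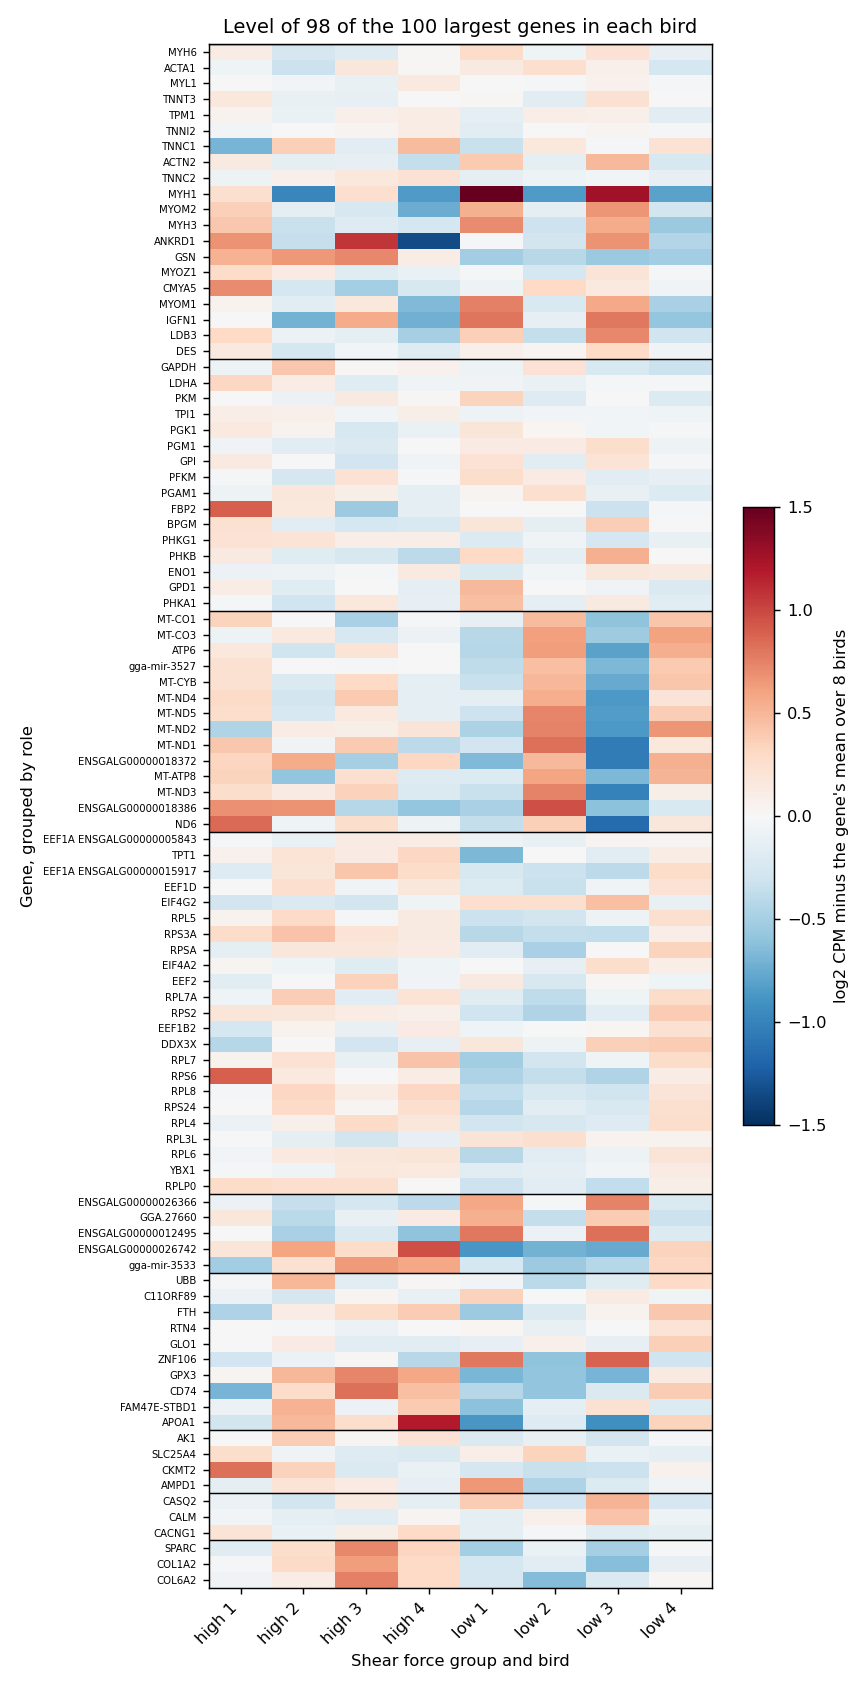
Level of 98 of the 100 genes (rows, grouped by role and divided by black lines) in the 8 birds (columns), as log2 CPM minus the gene's mean over the birds, red above and blue below. MYH1, MYOM2 and ZNF106 are red in low birds 1 and 3, and the mitochondrial rows are red in low bird 2 and blue in low bird 3.

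The deposited transcript table holds 2 or more transcripts for 12 of the 100 genes and 1 for the other 88. For 10 of the 12 the same transcript was largest in every bird. The larger of the MYL1 transcripts held 73.5% ± 4.23 of that gene, TNNT3-202 held 74.4% ± 1.76 of TNNT3, TPM1-203 held 64.6% ± 3.58 of TPM1 and PKM-202 held 97.4% ± 0.789 of PKM (SD, n = 8). The largest transcript changed between birds for EEF2 and MYOM1. EEF2-202 held 61.9%, 67.9%, 64.8% and 81.0% in high birds 1 to 4 and 44.7%, 82.02%, 40.7% and 80.9% in low birds 1 to 4. The other EEF2 transcript was the larger in low birds 1 and 3 alone.

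MYOM1-202 ranged from 35.8% in low bird 3 to 63.7% in high bird 2. It held 59.4% in low bird 1, so low birds 1 and 3 did not lie together for MYOM1. As for EEF2-202, low birds 1 and 3 were the 2 lowest for SPARC-202, at 84.8% and 83.1% against 92.9% to 97.5%. For PHKB-202 they were again the 2 lowest, at 76.9% and 72.5% against 83.03% to 89.3%. They were the 2 lowest for TPM1-203, at 59.5% and 59.3%. Shares of transcripts that overlap are estimates of the authors' counting and carry its uncertainty.

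**Figure D5:**
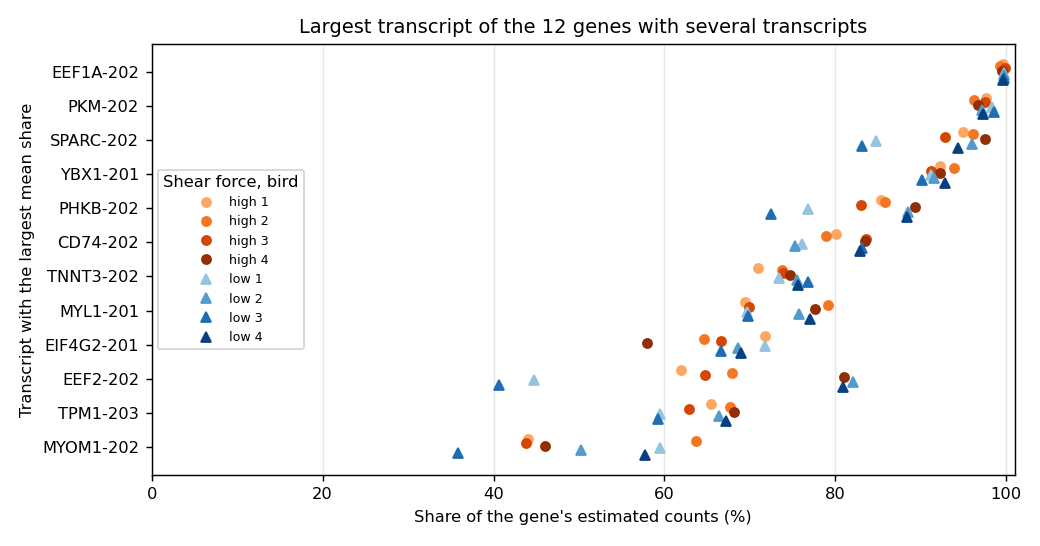
Share (%) of each gene's estimated counts held by the transcript with the largest mean share, for the 12 genes with 2 or 3 transcripts, with circles for high birds and triangles for low birds. EEF2-202 runs from 40.7% to 82.02%, while PKM-202 and EEF1A-202 stay near 100% in all birds.

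The 100 genes were spread over 25 chromosomes, the mitochondrial one included, and a set of unplaced contigs or linkage groups. The mitochondrial chromosome gave 14 of its 21 entries, chromosome 5 gave 8, chromosome 1 gave 7 and chromosomes 3 and 7 gave 6 each. Chromosomes 1 to 5 held 31 of the 100, while 43.2% of all entries lie there. The Z chromosome gave 4, FBP2, RPS6, CKMT2 and CMYA5, with 4.47% of entries. High bird 1, the library that went against its sex label, was the highest for all 4, at 1.72 to 2.01 times the mean of the other 7. CMYA5 had a mean of 1255 ± 355 CPM (SD, n = 8), and of 1151 ± 216 CPM without this library (SD, n = 7). By share of counts, the members on chromosome 1, GAPDH among them, held 10.9% ± 1.48 and those on the mitochondrial chromosome 10.6% ± 2.88 (SD, n = 8), a gap smaller than either SD. Those on chromosome 5 held 7.87%.

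Some of the 100 lie within 100 kb of each other, and whether other genes lie between them was not checked. On chromosome 5, TNNT3 at 13389730 to 13416288, C11ORF89 at 13430237 to 13439275 and TNNI2 at 13473898 to 13476632 lie in this order within 100 kb. RPL3L and RPS2 on chromosome 14 are separated by 2978 bases, DDX3X and RPL8 on chromosome 1 by 26422 bases and GPX3 and CD74 on chromosome 13 by 87032 bases. The genes named here do not overlap each other. No source names a strand setting for the counting, so reads of genes that do overlap may be shared.

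The labelled tissue was checked against markers. Of 10 skeletal muscle fibre markers 4 had an entry under the symbol searched, ACTA1, TNNT3, TNNI2 and TNNC2, and all 4 were among the 100, while the other 6, CKM, RYR1, ATP2A1, CASQ1, PYGM and MYLPF, are not analysed here. These 4 summed to 91894 ± 6754 CPM (SD, n = 8), and each other marker set summed to less. The 5 slow or cardiac fibre markers summed to 8969 ± 2215 CPM (SD, n = 8), of which TNNC1 made up 8888. Fibroblast markers summed to 2621 ± 751 CPM and leukocyte markers to 1054 ± 383 CPM (SD, n = 8). For 6 endothelial markers the sum was 318 ± 97.8 CPM and for 4 adipocyte markers 207 ± 73.9 CPM (SD, n = 8). For 3 satellite cell markers it was 139 ± 27.2 CPM (SD, n = 8). The 5 smooth muscle and pericyte markers summed to 1119 ± 109 CPM, of which DES, also a fibre gene, made up 916, and 2 nerve and Schwann cell markers to 83.8 ± 20.9 CPM (SD, n = 8). Erythrocyte markers summed to 57.6 to 600 CPM over the 8 birds, and no globin gene was among the 100. No marker with an entry was at 0.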

How the data were processed

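Deposited tables of the authors give expected counts, estimates that may be fractions, for 8 birds over 17108 genes and 17954 transcripts with Ensembl identifiers. Of the gene values, 8.22% were not whole, with a tolerance of 1 in 1000000. Per the submitters' processing notes, the build was galGal4 and the tools included RSEM, Bowtie2, TopHat, Cuffdiff, FastQC, DESeq2 and edgeR, with no version or role stated. Filters, strand settings and the joining of technical repetitions were not given in the sources used here. Gene symbols, biotypes and coordinates, per the file headers, come from the authors' deposited comparison table, whose fold changes and p-values were not used. Current names were looked up in a RefSeq table of GRCg7b. No sequences were used.

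CPM is the expected count divided by the column sum, times 1000000, with no filter. Means, SDs and CVs are over 8 birds, each counted as 1 sample, and the birds were not split by group. No test between groups or genes was run, and single birds were screened with Dixon's limit. All 100 genes are counted by role, 2 of them are not reported here by name, and the text gives values in every bird for the 10 largest and for genes chosen by role, CV or a bird far from the rest. The genes, gene lists and markers were chosen with earlier results of these data known, and roles of genes on no list were given from their symbols once the 100 were known. Tools were Python 3.11.15, pandas 2.3.3, numpy 2.4.6, matplotlib 3.10.9, R 4.3.3, edgeR 4.0.16 (TMM scaling) and DESeq2 1.42.0 (size factors). Alternatives covered scaling, left-out gene classes, median and summed levels, a filter, transcripts, and birds left out. Values without low birds 1 and 3 together, and those of Z genes without high bird 1, were added after seeing the data.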

Additional observations from a re-analysis of the deposited data

Results flagged for a closer look

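In 5 of 138 values screened, the highest bird lay far from the other 7, with a gap to the nearest bird above Dixon's 95% limit for 8 values as a fraction of the whole range. All 5 lay among the CPM of the 100 genes, and chance alone flags about 1 in 20. Some of the 138 values repeat each other, such as the shares of the 2 transcripts of a gene. FBP2, muscle fructose bisphosphatase, stood at 4237 CPM in high bird 1, and RPS6, a ribosomal protein, at 1773 CPM in the same bird. The CALM entry on chromosome 5, calmodulin, stood at 2112 CPM in low bird 3. RTN4, a reticulon, stood at 1523 CPM in low bird 4, and GPD1, glycerol 3-phosphate dehydrogenase, at 1368 CPM in low bird 1. FBP2 and RPS6 both lie on the Z chromosome, and high bird 1 is the library whose Z and W levels went against its sex label. The part of this in the pair of values was not tested.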

How the results depend on the processing

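Of 199 alternative values for 16 results, 194 stayed within 1 SD, or within 1.5 times for the number of members among the 100 largest of every bird. This count includes shares by role, whose genes were kept fixed. For these shares, leaving out 1 bird, or low birds 1 and 3, could not have moved the mean by 1 SD. The same holds for the share of GAPDH and the number of genes holding 50%, each read within a bird. For the 10 and the 100 largest, ranked again, almost the same genes were kept, so such a move was hardly possible. Scaling of totals leaves the order within a bird as it was and cannot change the number of genes holding 50%. All these values therefore say nothing about robustness, or little where genes were ranked again. With mitochondrial genes left out, the 100 largest held 57.99% of the remaining counts, the 10 largest 37.7%, and 36.3 genes held 50%, as follows from the removal of 14 members. With transcripts ranked in place of genes, the 10 largest held 33.8%. Without low birds 1 and 3 the median CV was 15.6%. TMM scaling, DESeq2 size factors, globin genes left out, a median or sum over birds, the low-count filter and each bird left out in turn kept 98 or more of the 100 genes and GAPDH first. A ranking per coding length was not run, since no lengths of nuclear transcripts were used here. Counting error was small beside the spread between birds. The limits are transcript length, near-identical copies, genes not analysed here, and 8 birds of 1 strain, 1 of them against its sex label. No result comes from a test, so no paired test was run, and orders of genes within birds are given as counts only.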

Other observations

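Several gene groups lay just below the 100. Of 19 listed matrix genes with an entry, COL3A1 ranked 113th at 753 ± 350 CPM, VIM, vimentin, 119th, COL6A1 127th, POSTN 139th and COL4A1 144th. Among chaperones, HSPA8 ranked 120th, HSP90AA1 126th and HSP70 178th. UBB, at rank 20, was the 1 gene in the 100 from the 32 with an entry on that list. That is 3.13%, against 1.24% for all genes with an entry. Nuclear genes of oxidative phosphorylation continued after SLC25A4, at rank 41, with NDUFA4 at rank 156 and ATP5B at rank 166, and the list had a median rank of 487 against 24.5 for the mitochondrial-encoded list.

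Parvalbumin, PVALB, ranked 5355th. ALDOC ranked 150th, while LDHB, the heart-type lactate dehydrogenase subunit, ranked 1210th. Of 11 phosphagen and purine nucleotide genes listed with an entry, 3 were among the 100, with a median rank of 382. The 7 iron and redox genes and 4 erythrocyte genes listed with an entry gave 0 to the 100. Over all genes with an entry the share in the 100 was 1.24%, so 0 from lists this short says little. Their median ranks were 716 and 1293. FTH and GPX3, which are among the 100, are not among the 7 iron and redox genes.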
